A study of Mus musculus with 38 samples.

Results

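The liver secretes most proteins of blood plasma, and 53 genes of such proteins were followed in livers of mice that lack or keep c-Met in hepatocytes. This receptor tyrosine kinase binds hepatocyte growth factor (HGF). The genes were taken as a list by gene symbol and fall into carriers, fibrinogen chains, coagulation factors, anticoagulant and fibrinolytic proteins, complement components, lectin pathway proteins, acute phase proteins and broad protease inhibitors. Of the 53 genes, 52 had at least 1 probe with that single gene symbol, out of 17501 genes on the array with such a probe, and their 71 probes are described here among 36607 in all. C3, the central complement component, had no such probe, and a further Masp2 probe that also names Tardbp was left out. Several probes were present for 15 genes, numbered here within each gene in file order.

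The study asked what c-Met does in liver carcinogenesis induced by N-nitrosodiethylamine (DEN), a compound that hepatocytes activate into a DNA alkylating agent. All mice were males given 10 µg DEN per gram of body weight at 14 days of age, and the 4 groups of 5 mice were 5-month knockouts, 5-month controls, 3-month knockouts and 3-month controls. Knockouts carried Alb-Cre +/- and Met Fl/Fl and have the strain label 129SV/C57BL6, while controls carried Alb-Cre +/- alone and have the strain label B6129, so genotype and strain label cannot be told apart. The Cre is driven by the albumin promoter, and these data do not show the Met status of other liver cells. The groups called 5 and 3 months are labelled as 20 and 12 weeks old, which leaves the time since the dose unsettled. Each liver was hybridised on 2-colour arrays against a common pool of RNA from 5 wild-type B6129 male livers aged 12 weeks.

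Hepatocytes make fibrinogen and most clotting factors as inactive precursors, and they also make the antithrombin and protein C systems that hold clotting in check. They supply the complement cascade and the soluble lectins that recognise microbial sugars. In an acute phase response, interleukin-6 and interleukin-1 act on hepatocytes through STAT3 and C/EBP factors, so that serum amyloid A, orosomucoid and haptoglobin increase while albumin and transthyretin decrease. Murinoglobulins are rodent relatives of alpha-2-macroglobulin that trap proteases.

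A level below is the log2 ratio of liver over the pooled reference, 1 value per mouse, and group levels are means ± SD with n = 5. A difference is the difference between group means on the log2 scale ± its standard error from limma, which was fitted to all 36607 probes and all 20 mice. Adjusted p-values are Benjamini-Hochberg values over all probes, and a probe was called where this was below 0.05. Every direction rests on reading the deposited values as Cy5 over Cy3. No source states this, so it is only likely, and if the ratio ran the other way each higher would be a lower. The member probes bear on the turning of the dye-swapped arrays: before turning, both arrays of a mouse mirrored each other over the 71 probes (r = -0.93 to -0.76 in 8 mice of 5 months and -0.91 to -0.76 in 10 mice of 3 months). Over all probes the same correlations ran from -0.70 to 0.18 and from 0.34 to 0.51. Bulk tissue cannot tell fewer cells of a type from less RNA per cell.

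Features of the whole series bear on these values. For 5-month control 4, the array with liver in Cy5 correlated at -0.61 to -0.48 over all probes with the 10 liver-in-Cy5 arrays of 3 months. Those 3-month arrays did not mirror their own partners over all probes before turning (r = 0.34 to 0.51), so that comparison does not settle its direction. Before turning, the array mirrored that mouse's other array at -0.70 over all probes and -0.89 over the member probes. Results are also given with its sign turned. That setting puts both arrays of this mouse against each other, so it cancels liver signal of this mouse by construction. Met had 1 probe, at -0.78 ± 0.49 in 5-month knockouts, -0.73 ± 0.30 in 5-month controls, -0.39 ± 0.38 in 3-month knockouts and -0.81 ± 0.18 in 3-month controls. Where that probe lies relative to the deleted part is not given, so it does not check the genotype labels. Runs of consecutive experiment numbers divide the arrays into series A to D. Series A holds 5-month knockouts 1 and 2 and controls 1 to 5, and B holds 5-month knockouts 3 to 5. Series C holds 3-month knockouts 1 and 2 and controls 1 to 3, and D holds 3-month knockouts 3 to 5 and controls 4 and 5. Age and series cannot be told apart. Series B has no control, so at 5 months genotype and series are partly confounded. Of the hepatocyte markers (Alb, Apoa1, Ttr, Cps1, Tat, Hnf4a, Cyp2e1 and Asgr1), 8 of 8 were measured, and Alb and Ttr are members too. The marker median per mouse was -0.01 to 0.28 in 5-month knockouts, -0.56 to 0.10 in 5-month controls, 0.11 to 0.27 in 3-month knockouts and 0.17 to 0.26 in 3-month controls.

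At 5 months, 3 of the 71 member probes were called, and all 3 belong to Mug2 and were higher in knockouts (4.23%, where 0.107% of all probes were called higher and 0.112% in either direction). Beyond those 3, most member probes lay higher in knockouts without being called. The difference was above 0 for 52 of 71 probes (73.2%, against 52.3% of all probes). The median was 0.16, against 0.01 for all probes, with a range from -1.83 to 1.09. Without 5-month control 4 the median over the member probes was 0.05, and without 5-month control 1 it was 0.21. An unadjusted p under 0.05 was reached by 17 probes (23.9%, against 10.4% of all probes). Knockouts and controls did not overlap for 10 probes that were higher in knockouts (against 2.66% of all probes). They did not overlap either for 1 probe that was lower (Colec10, where the share of all probes is 1.27%). Members were chosen with earlier results of these data known, so the member shares here and below are a description.

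At 3 months, no member probe was called by limma (0.071% of all probes were called in either direction), and 4 of 71 had an unadjusted p under 0.05 (5.63%, against 8.47% of all probes). The differences ranged from -0.52 to 0.66, with a median of 0.06 against -0.02 for all probes. The difference was above 0 for 47 of 71 probes (66.2%, against 45.5% of all probes). Knockouts and controls did not overlap for 2 probes, both of Mug2 and both higher in knockouts (0.385% of all probes were higher without overlap). The map of levels and the plot of differences show that the separation of genotypes at 5 months was widest in the murinoglobulin rows and that the acute phase rows varied most between mice.

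**Figure D1:**
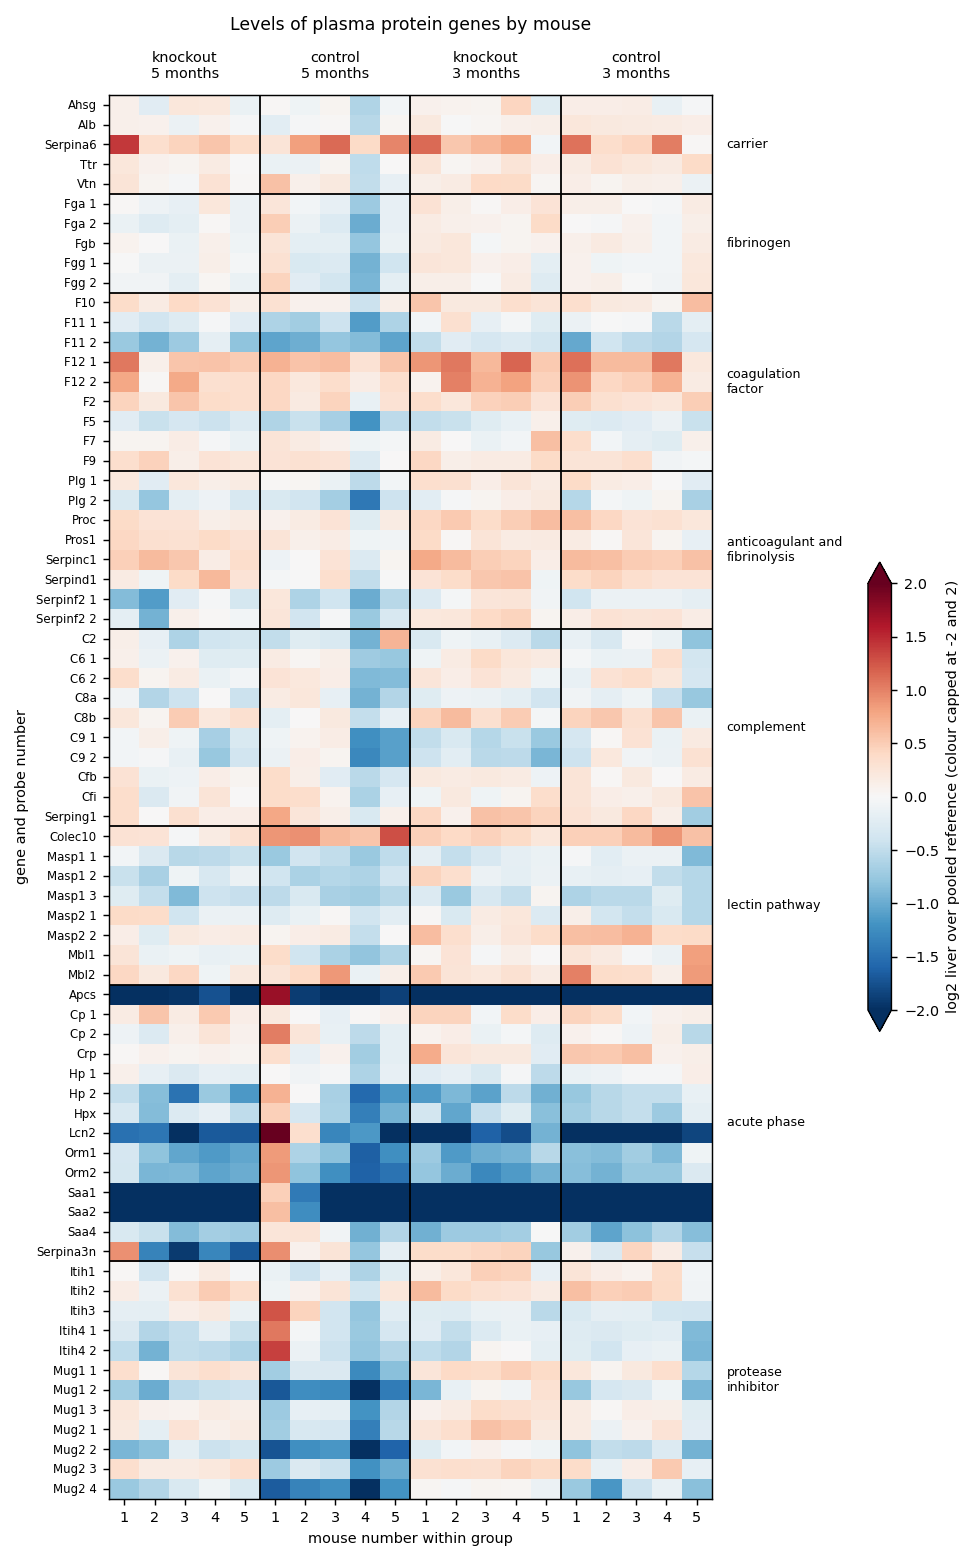
Levels of the 71 member probes (rows, by class) in the 20 mice (columns, by group), as log2 liver over pooled reference, with the colour capped at -2 and 2. The murinoglobulin rows at the bottom are lowest in the 5-month controls, 5-month control 4 is low in most rows, and Saa1, Saa2, Apcs and Lcn2 are far below the reference in nearly all mice but high in 5-month control 1.

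**Figure D2:**
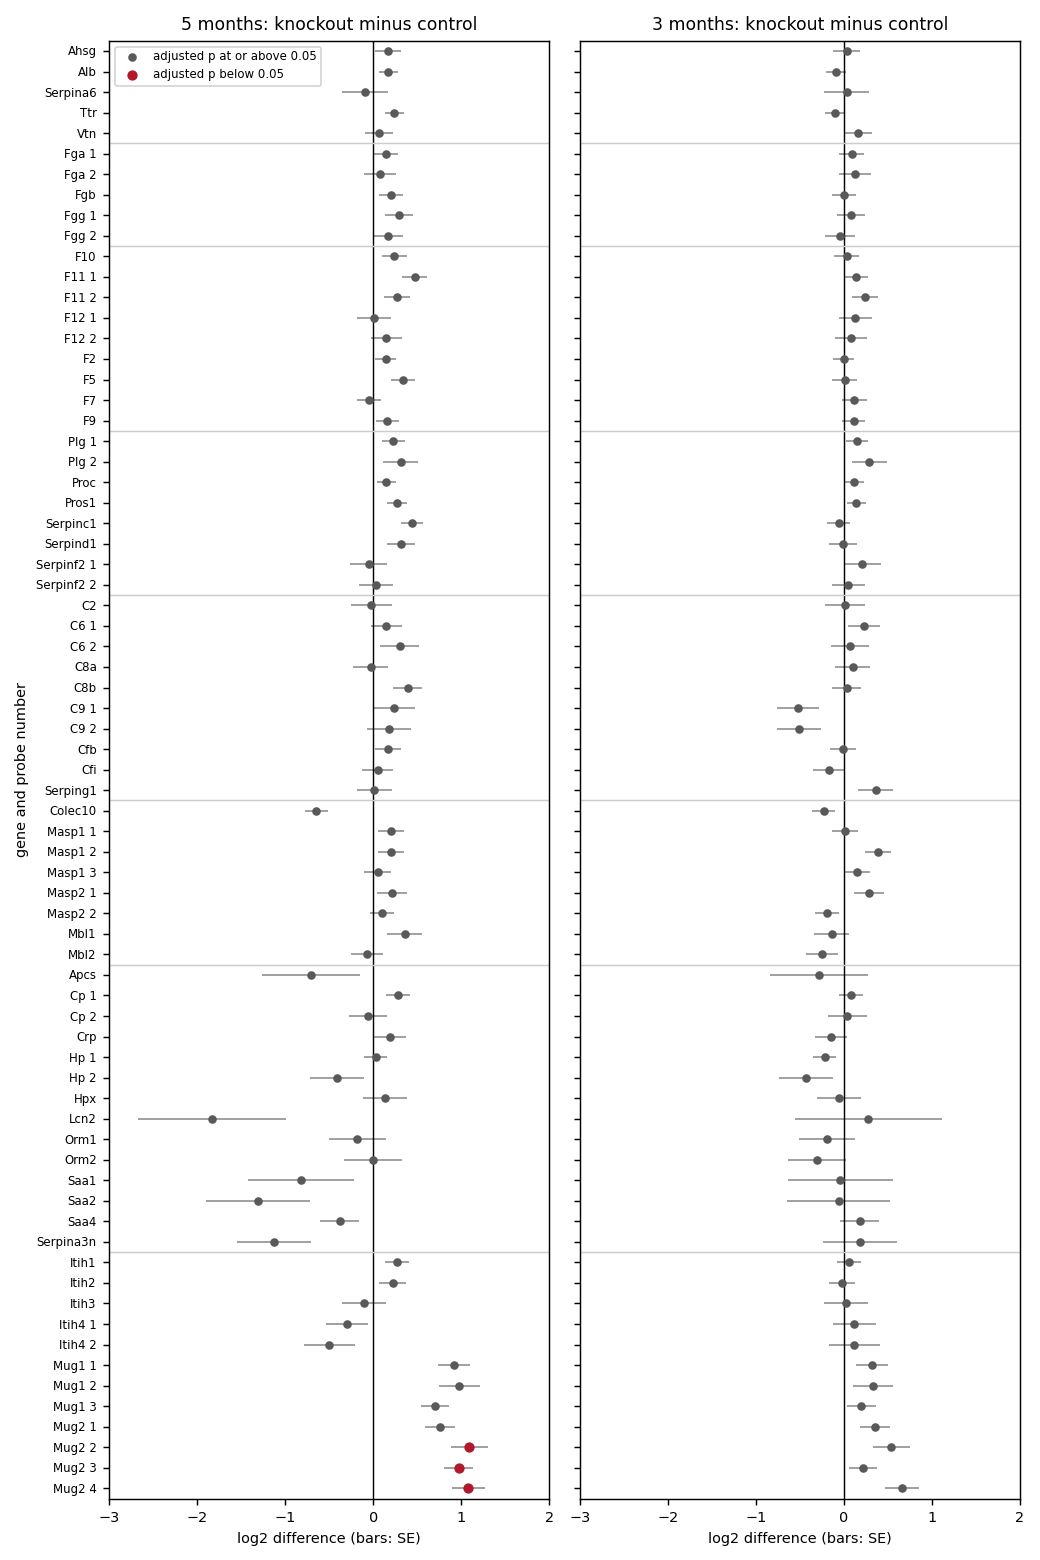
Difference between knockouts and controls for each member probe at 5 months (left) and 3 months (right), as log2 difference with its standard error from limma. The 3 called probes (red) are all of Mug2 at 5 months, between 0.97 and 1.09, and Lcn2 has the lowest value, -1.83, with the widest bar.

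The murinoglobulins Mug1 and Mug2 were the members whose levels differed most clearly. They are close copies of each other on chromosome 6, so probes may read both and the split between them is uncertain. Met lies on the same chromosome, at chr6:17463349-17573980, far from Mug1 at chr6:121838496-121889057 and Mug2 at chr6:122006729-122085968 (RefSeq, GRCm38.p6). Since genotype and strain label differ together, what each contributes to the murinoglobulin values cannot be told apart. Their likeness extends to the 250 bases before the transcription start used for the promoter sequences. That start lies inside the gene spans above, so the last bases of each stretch fall within the annotated gene. The RefSeq sequences of build GRCm38.p6 are shown for both genes because the probes of both moved in the same direction. They lie on the plus strand at chr6:121838291-121838540 for Mug1 and chr6:122006548-122006797 for Mug2, and capitals mark a match to the pattern GTTAAT of the hepatocyte factor HNF1, read here on the reverse strand. Of the 222 positions that align, 197 are identical (88.7%).
Mug1: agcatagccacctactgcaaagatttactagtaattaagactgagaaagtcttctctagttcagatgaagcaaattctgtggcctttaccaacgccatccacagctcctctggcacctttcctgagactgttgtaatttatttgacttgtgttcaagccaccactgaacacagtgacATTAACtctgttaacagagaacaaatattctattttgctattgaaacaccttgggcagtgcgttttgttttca
Mug2: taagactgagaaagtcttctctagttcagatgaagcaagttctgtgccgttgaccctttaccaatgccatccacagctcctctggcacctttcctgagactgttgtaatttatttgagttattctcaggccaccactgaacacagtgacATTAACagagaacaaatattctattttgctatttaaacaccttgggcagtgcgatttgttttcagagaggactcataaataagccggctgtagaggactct

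For Mug2 probe 3, levels were 0.33, 0.17, 0.16, 0.21 and 0.34 in 5-month knockouts 1 to 5, against -0.73, -0.29, -0.43, -1.21 and -0.99 in 5-month controls 1 to 5. All 5 knockouts lay above the reference, all 5 controls lay below it, and the groups did not overlap. The difference was 0.97 ± 0.16 (1.96-fold, adjusted p = 0.0196, limma). In 3-month mice the same probe stood at 0.30, 0.33, 0.32, 0.45 and 0.38 in knockouts and at 0.36, -0.15, 0.13, 0.52 and -0.17 in controls. There the knockouts lay inside the range of the controls, whose mice 2 and 5 were low.

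For Mug2 probe 4, levels were -0.75, -0.58, -0.30, -0.08 and -0.31 in 5-month knockouts, against -1.66, -1.33, -1.22, -2.01 and -1.19 in 5-month controls. The highest control stayed below the lowest knockout, with a difference of 1.08 ± 0.19 (2.12-fold, adjusted p = 0.0219). At 3 months the levels of this probe were 0.04, -0.02, 0.06, 0.04 and -0.11 in knockouts and -0.74, -1.16, -0.42, -0.15 and -0.84 in controls. The 3-month groups did not overlap either, but by a gap of only a few hundredths, and the difference of 0.66 ± 0.19 had an unadjusted p of 0.00207 and was not called (adjusted p = 0.224).

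For Mug2 probe 2, levels were -0.91, -0.82, -0.20, -0.43 and -0.35 in 5-month knockouts, against -1.72, -1.23, -1.17, -2.44 and -1.60 in 5-month controls. The groups did not overlap, and the difference was 1.09 ± 0.21 (2.12-fold, adjusted p = 0.0408). At 3 months it stood at -0.25, -0.06, 0.09, -0.03 and -0.08 in knockouts and at -0.80, -0.50, -0.52, -0.27 and -0.94 in controls, which again did not overlap, with a difference of 0.54 ± 0.21 (adjusted p = 0.443). Mug2 probe 1 was not called at 5 months, with levels of 0.20, -0.20, 0.28, 0.10 and 0.16 in knockouts against -0.70, -0.32, -0.33, -1.37 and -0.56 in controls, and a difference of 0.76 ± 0.17 (adjusted p = 0.0962).

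Mug1 probe 1 was just above the threshold at 5 months. Its levels were 0.34, 0.03, 0.26, 0.34 and 0.24 in knockouts, against -0.69, -0.29, -0.29, -1.27 and -0.84 in controls, and the difference was 0.92 ± 0.18 (adjusted p = 0.0506). The genotypes did not overlap there. Mug1 probes 2 and 3 differed by 0.98 ± 0.23 (adjusted p = 0.117) and 0.70 ± 0.16 (adjusted p = 0.0894), also without overlap. At 3 months Mug1 probe 1 stood at 0.37 ± 0.09 in knockouts and 0.05 ± 0.36 in controls. The 3 Mug1 probes then differed by 0.32 ± 0.18, 0.33 ± 0.23 and 0.20 ± 0.16, with overlapping groups and adjusted p of 0.685 to 0.802. With the probes of each gene averaged before the limma fit, both genes were called at 5 months, where 29 of 17501 genes were called in all. Mug1 gave 0.87 (adjusted p = 0.0484) and Mug2 0.98 (adjusted p = 0.0125). Neither was called at 3 months (0.28 and 0.44, adjusted p = 0.693 and 0.393), where 10 of 17501 genes were called.

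**Figure D3:**
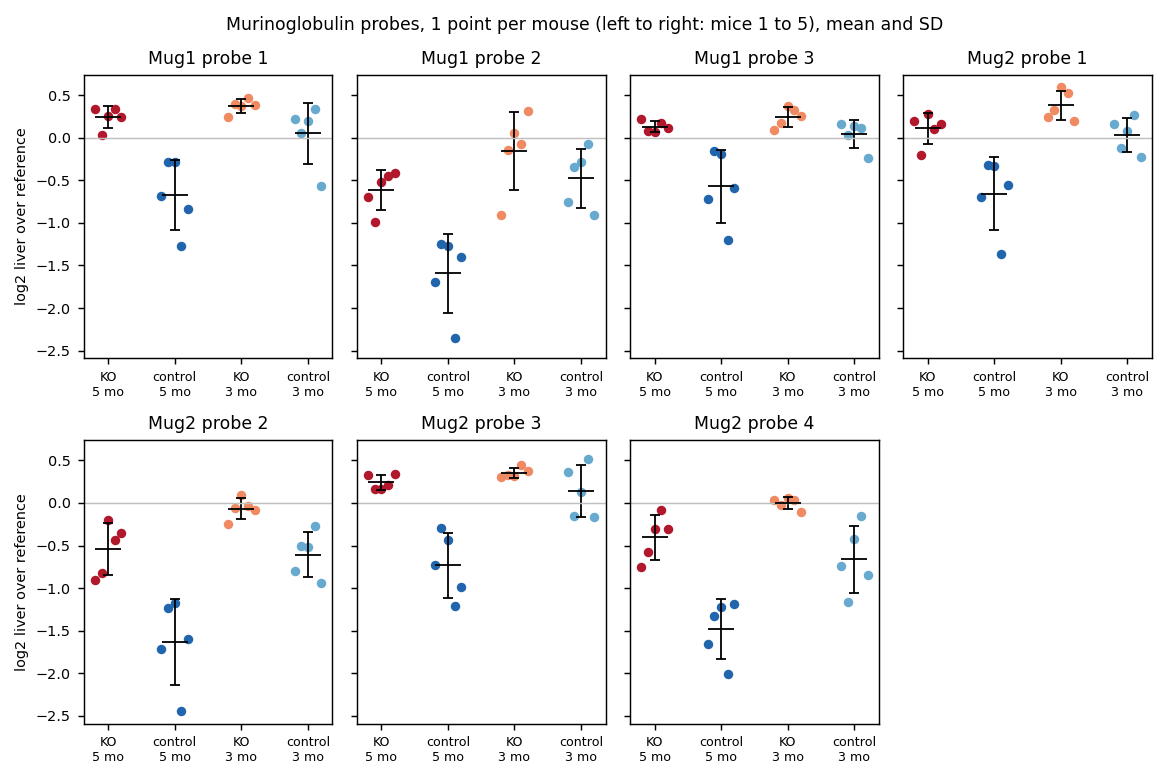
Levels of the 7 murinoglobulin probes, as log2 liver over pooled reference, with 1 point per mouse (mice 1 to 5 from left to right in each group), the mean and the SD. In every panel the 5 knockouts of 5 months lie above the 5 controls of 5 months, and 5-month control 4 is the lowest point of each panel, at -1.21 for Mug2 probe 3.

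Within array series A, which leaves 2 knockouts, the 7 probes gave 5-month differences of 0.65 to 0.98, and none was called there. With array series as a covariate, no member probe was called either. The sign was also turned for 1 array of 5-month control 4, the one with liver in Cy5. The differences then shrank to 0.41 to 0.70 and none was called (adjusted p = 0.288 to 0.797). This cancels liver signal of control 4 by construction, since its 2 arrays mirrored each other before turning (r = -0.89 over the member probes). The count of 3 called member probes became 0 without knockout 4, knockout 5, control 1 or control 4, 1 without knockout 3 or control 5, and 6 without control 3. Without controls 1 and 4 together it was 0, with murinoglobulin differences of 0.44 to 0.85.

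The other protease inhibitors here are the heavy chains of inter-alpha-inhibitor, which bind hyaluronan in the extracellular matrix. Itih1 and Itih2 stood at -0.04 ± 0.21 and 0.24 ± 0.23 in 5-month knockouts, against -0.31 ± 0.20 and 0.02 ± 0.25 in 5-month controls, with differences of 0.27 ± 0.14 and 0.22 ± 0.15 (adjusted p = 0.533 and 0.692). Itih3 and Itih4, which respond to inflammation, went with single mice instead. Itih3 stood at 1.25 in 5-month control 1 and 0.44 in control 2, and between -0.78 and 0.19 in the other 18 mice. Itih4 probe 1 was 1.06 in 5-month control 1 and between -0.89 and -0.04 elsewhere. Neither Itih3 (-0.10 ± 0.25) nor Itih4 (-0.30 ± 0.24 and -0.50 ± 0.29) was called at 5 months, and none of the 5 Itih probes was called at 3 months (-0.02 to 0.12).

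Acute phase genes were the class with the widest spread between mice, and none of its 14 probes was called in either genotype comparison. The serum amyloid A proteins Saa1 and Saa2 travel on high density lipoprotein and are among the most inducible liver products. Their neighbouring genes have nearly identical promoters, shown here because both rows of values follow each other. Saa1 lies on the minus strand at chr7:46742981-46743230 and Saa2 on the plus strand at chr7:46751583-46751832 (RefSeq, GRCm38.p6), and 238 of 250 aligned positions are identical (95.2%). Capitals mark a match to the C/EBP pattern TTNNGCAA, read on the reverse strand.
Saa1: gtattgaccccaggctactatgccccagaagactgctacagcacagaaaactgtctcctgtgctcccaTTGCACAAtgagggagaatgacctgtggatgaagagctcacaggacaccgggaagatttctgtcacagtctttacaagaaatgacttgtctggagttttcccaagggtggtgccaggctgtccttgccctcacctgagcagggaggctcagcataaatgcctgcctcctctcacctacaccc
Saa2: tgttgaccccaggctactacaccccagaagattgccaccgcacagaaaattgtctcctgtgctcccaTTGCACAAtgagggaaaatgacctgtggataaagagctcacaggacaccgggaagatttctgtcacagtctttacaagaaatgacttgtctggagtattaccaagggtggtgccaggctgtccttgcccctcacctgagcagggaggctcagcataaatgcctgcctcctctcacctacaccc

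Saa1 levels were -2.87, -3.07, -3.60, -3.19 and -3.62 in 5-month knockouts, against 0.48, -1.42, -3.63, -3.62 and -4.06 in 5-month controls. They were -4.40, -3.98, -3.88, -3.97 and -3.10 in 3-month knockouts and -4.20, -4.22, -3.41, -3.85 and -3.45 in 3-month controls. Thus 18 of 20 mice lay far below the pooled reference, and the exceptions were 5-month controls 1 and 2. The genotype difference of -0.82 ± 0.60 at 5 months was not called (adjusted p = 0.700) and was -0.09 without control 1, and at 3 months it was -0.04 ± 0.60 (adjusted p = 0.997).

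Saa2 levels were -2.63, -3.25, -4.42, -2.53 and -3.56 in 5-month knockouts, against 0.60, -1.24, -2.64, -3.40 and -3.15 in 5-month controls. They were -4.16, -2.95, -3.17, -2.94 and -2.91 in 3-month knockouts and -3.72, -3.96, -2.78, -3.22 and -2.16 in 3-month controls. The -2.53 of 5-month knockout 4 averages -0.63 with liver in Cy5 and -4.44 with liver in Cy3. Over 18 mice, with group means removed, both orientations of this probe correlated at r = 0.66. The same 2 controls stood out, and otherwise the genotypes overlapped. The difference was -1.31 ± 0.59 at 5 months (adjusted p = 0.443) and -0.67 without control 1, and it was -0.06 ± 0.59 at 3 months. Saa4, the constitutive family member, stood at -0.60 ± 0.23 in 5-month knockouts, -0.22 ± 0.53 in 5-month controls, -0.62 ± 0.36 in 3-month knockouts and -0.80 ± 0.17 in 3-month controls, with differences of -0.38 ± 0.22 at 5 months and 0.18 ± 0.22 at 3 months (adjusted p = 0.573 and 0.893).

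Lcn2, lipocalin 2, which binds bacterial siderophores and is made by hepatocytes and neutrophils, gave the highest single member value. Its levels were -1.50, -1.44, -3.12, -1.68 and -1.69 in 5-month knockouts, against 4.34, 0.34, -1.31, -1.15 and -2.49 in 5-month controls. They were -2.99, -2.74, -1.62, -1.77 and -0.95 in 3-month knockouts and -2.76, -2.67, -2.15, -2.04 and -1.84 in 3-month controls. Only 5-month controls 1 and 2 lay above the reference. The 5-month difference was -1.83 ± 0.84 (adjusted p = 0.452), and -0.73 without control 1. The neutrophil markers (8 of 9 genes measured, 10 probes) had a median level of -0.03 in 5-month control 1, inside the range of -0.09 to 0.24 of the 5-month controls. Among them S100a8 and S100a9 stood at -0.10 and -0.50 in that mouse.

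The lipocalin Orm1, an orosomucoid that carries basic drugs in plasma, stood at -0.33, -0.80, -1.04, -1.13 and -1.04 in 5-month knockouts, against 0.85, -0.61, -0.82, -1.63 and -1.22 in 5-month controls. It stood at -0.72, -1.13, -0.97, -0.93 and -0.55 in 3-month knockouts and at -0.83, -0.86, -0.69, -0.88 and -0.09 in 3-month controls. Again 5-month control 1 was the only mouse above the reference, and the groups overlapped at both ages. Its 5-month difference of -0.18 ± 0.32 (adjusted p = 0.921) became 0.20 without control 1, so it has no stable direction. Its paralog Orm2 stood at -0.84 ± 0.29 in 5-month knockouts, -0.85 ± 1.01 in 5-month controls, -1.03 ± 0.19 in 3-month knockouts and -0.72 ± 0.25 in 3-month controls. It differed by 0.00 ± 0.33 at 5 months and -0.31 ± 0.33 at 3 months.

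Apcs, serum amyloid P, the main pentraxin of the mouse acute phase, was 1.73 in 5-month control 1 and between -3.17 and -1.74 in the other 19 mice, with means of -2.17 ± 0.34 in 5-month knockouts, -1.45 ± 1.83 in 5-month controls, -2.51 ± 0.49 in 3-month knockouts and -2.23 ± 0.24 in 3-month controls. Crp, a pentraxin that responds little in mice, stayed at 0.06 ± 0.02 in 5-month knockouts, -0.13 ± 0.39 in 5-month controls, 0.23 ± 0.35 in 3-month knockouts and 0.37 ± 0.25 in 3-month controls. Hp, the haemoglobin scavenger haptoglobin, had a probe that varied little, at -0.14 ± 0.14 in 5-month knockouts, -0.17 ± 0.25 in 5-month controls, -0.25 ± 0.18 in 3-month knockouts and -0.03 ± 0.10 in 3-month controls (differences of 0.03 ± 0.13 and -0.22 ± 0.13 at 5 and 3 months) and another that varied with the serum amyloids, at -0.94 ± 0.39 in 5-month knockouts, -0.53 ± 0.90 in 5-month controls, -0.92 ± 0.24 in 3-month knockouts and -0.49 ± 0.22 in 3-month controls (-0.41 ± 0.31 and -0.43 ± 0.31). Hpx, the haem carrier haemopexin, and Cp, the ferroxidase ceruloplasmin, gave 5-month differences of 0.13 ± 0.25 for Hpx and 0.28 ± 0.14 and -0.06 ± 0.22 for the Cp probes, of which the first did not repeat between dyes (r = -0.40).

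Serpina3n, a secreted inhibitor of granzyme B and other serine proteases, varied differently from the other acute phase genes. Its levels were 0.92, -1.33, -1.91, -1.31 and -1.70 in 5-month knockouts, against 0.93, 0.08, 0.26, -0.77 and -0.18 in 5-month controls. Knockouts 2 to 5 lay below all controls, while knockout 1 lay level with the highest control. Both 3-month groups stayed near the reference, at 0.37, 0.36, 0.41, 0.44 and -0.76 in knockouts and 0.09, -0.29, 0.43, 0.15 and -0.46 in controls. The 5-month difference was -1.13 ± 0.42 (2.19-fold lower, adjusted p = 0.348), and without knockout 1 it was -1.63 with an adjusted p of 0.0462. Within array series A, which holds knockout 1, it was -0.27.

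**Figure D4:**
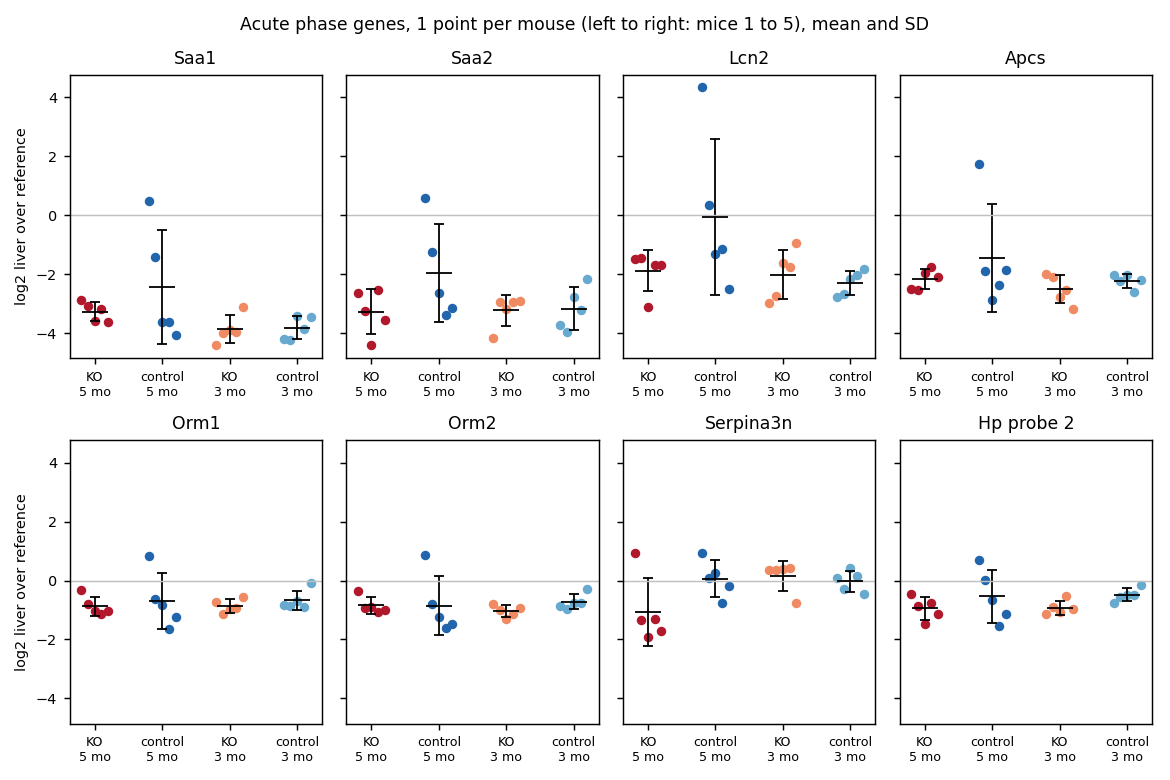
Levels of 8 acute phase probes, as log2 liver over pooled reference, with 1 point per mouse (mice 1 to 5 from left to right in each group), the mean and the SD. The first point of the 5-month controls, mouse 1, stands above all other mice for Saa1, Saa2, Lcn2, Apcs, Orm1, Orm2 and Hp probe 2, while for Serpina3n 4 of the 5 knockouts of 5 months are the lowest points.

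After the group means were removed, the members whose levels over 20 mice were most like Saa1 were Lcn2 (r = 0.94), Saa2 (0.90), Orm2 (0.88), Orm1 (0.86) and Hp probe 2 (0.85). Without 5-month control 1 the same correlations were 0.87, 0.83, 0.71, 0.69 and 0.76. The values share arrays and the reference, so they are a description. In the RefSeq promoters, a C/EBP match (TTNNGCAA, either strand) was found in 16 of the 42 promoters of the 41 members that matched an entry (38.1%, against 9.56% of all 32851 promoters), among them 7 of 11 of acute phase genes (Cp, Hpx, Lcn2, Orm2, Saa1, Saa2 and Saa4). The STAT pattern TTCNNNGAA was found in 19.0% of member promoters against 7.02% of all, and the HNF1 pattern GTTAAT in 23.8% against 6.43%. Of the 11 acute phase promoters, only that of Apcs held the STAT pattern and only that of Cp the HNF1 pattern. A TATAAA match was found in 9.52% of member promoters against 12.4% of all.

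The carriers Alb, the main colloid protein of plasma, and Ttr, a carrier of thyroid hormone and retinol-binding protein, stayed close to the reference. Alb stood at 0.03 ± 0.10 in 5-month knockouts, -0.15 ± 0.25 in 5-month controls, 0.09 ± 0.08 in 3-month knockouts and 0.18 ± 0.04 in 3-month controls. Ttr stood at 0.11 ± 0.08 in 5-month knockouts, -0.14 ± 0.22 in 5-month controls, 0.15 ± 0.10 in 3-month knockouts and 0.25 ± 0.09 in 3-month controls. The 5-month controls had the lowest mean for both genes, and among them control 4 was lowest (-0.56 for Alb and -0.51 for Ttr). The 5-month differences of 0.17 ± 0.11 for Alb and 0.24 ± 0.11 for Ttr were not called (adjusted p = 0.641 and 0.446). Ahsg, the calcification inhibitor fetuin A, Vtn, the adhesive protein vitronectin, and Serpina6, the corticosteroid carrier, gave 5-month differences of 0.17, 0.07 and -0.09. Serpina6 ranged from -0.06 to 1.41 over the 20 mice and was above 1 in 5 of them, which came from all 4 groups.

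The 3 fibrinogen chains form the clot when thrombin cleaves them, and their genes lay close to the reference in most mice. The 5 probes gave 5-month differences of 0.08 to 0.29 and 3-month differences of -0.04 to 0.13, none of them called (adjusted p of 0.559 or more). Fgb, for example, stood at -0.01 ± 0.10 in 5-month knockouts, -0.21 ± 0.37 in 5-month controls, 0.10 ± 0.10 in 3-month knockouts and 0.10 ± 0.10 in 3-month controls. Among 5-month controls the median of the fibrinogen probes was 0.30 in mouse 1 and -0.91 in mouse 4, which were the extremes of all 20 mice. The first probes of Fga and Fgg had means of -0.03 ± 0.15 and -0.03 ± 0.09 in 5-month knockouts, against -0.17 ± 0.35 and -0.32 ± 0.44 in 5-month controls. At 3 months they had means of 0.17 ± 0.11 and 0.10 ± 0.17 in knockouts, against 0.08 ± 0.08 and 0.02 ± 0.12 in controls.

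Coagulation factors lay higher in 5-month knockouts for 8 of 9 probes, with a median difference of 0.16, and none was called. F11, the factor XI zymogen that thrombin and factor XII activate, had the smallest p of the class. Its probe 1 stood at -0.22, -0.38, -0.26, -0.03 and -0.22 in 5-month knockouts, against -0.62, -0.69, -0.41, -1.11 and -0.61 in 5-month controls. The groups did not overlap, yet the difference of 0.47 ± 0.14 did not pass (adjusted p = 0.261), and probe 2 gave 0.27 ± 0.15 with overlapping groups. At 3 months F11 probe 1 stood at -0.06, 0.32, -0.17, -0.04 and -0.24 in knockouts and at -0.11, -0.01, -0.02, -0.54 and -0.20 in controls. These overlapped, with differences of 0.14 ± 0.14 and 0.24 ± 0.15 for the 2 probes.

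F5, the cofactor of factor Xa, stood at -0.34 ± 0.09 in 5-month knockouts and -0.69 ± 0.29 in 5-month controls without overlap, a difference of 0.34 ± 0.14 (adjusted p = 0.392). At 3 months it stood at -0.24 ± 0.24 in knockouts and -0.26 ± 0.12 in controls. F2, prothrombin, stood at 0.38 ± 0.13 in 5-month knockouts, 0.24 ± 0.24 in 5-month controls, 0.36 ± 0.11 in 3-month knockouts and 0.36 ± 0.12 in 3-month controls, with differences of 0.14 ± 0.12 at 5 months and 0.00 ± 0.12 at 3 months. The vitamin K dependent factors F7, F9 and F10 gave 5-month differences of -0.05, 0.16 and 0.24. F12, which starts contact activation, stood above the reference in all 20 mice for both probes, at 0.56 ± 0.34 and 0.45 ± 0.32 in 5-month knockouts and 0.55 ± 0.15 and 0.30 ± 0.11 in 5-month controls.

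Serpinc1, antithrombin, the main inhibitor of thrombin and factor Xa, had the smallest p among anticoagulants. Its levels were 0.48, 0.64, 0.54, 0.15 and 0.35 in 5-month knockouts, against -0.10, 0.01, 0.28, -0.28 and 0.05 in 5-month controls. Knockout 4 lay below control 3, and the other 4 knockouts lay above all controls, with a difference of 0.44 ± 0.13 (adjusted p = 0.243). At 3 months its levels were 0.76, 0.64, 0.49, 0.45 and 0.14 in knockouts and 0.64, 0.60, 0.50, 0.47 and 0.58 in controls, a difference of -0.06 ± 0.13. The mean of the 5-month controls was thus the lowest of the 4 groups.

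Pros1, protein S, a cofactor of activated protein C, stood at 0.34 ± 0.05 in 5-month knockouts and 0.07 ± 0.15 in 5-month controls without overlap, a difference of 0.27 ± 0.11 (adjusted p = 0.387). That probe did not repeat between dyes (r = 0.00 over 18 mice with group means removed), and at 3 months it stood at 0.20 ± 0.13 in knockouts and 0.06 ± 0.16 in controls, with overlap. Serpind1, the heparin cofactor II, gave a 5-month difference of 0.32 ± 0.16. Proc, protein C, stood at 0.24 ± 0.10 in 5-month knockouts, 0.09 ± 0.20 in 5-month controls, 0.48 ± 0.10 in 3-month knockouts and 0.36 ± 0.15 in 3-month controls. Plg, the zymogen of the clot-dissolving plasmin, stood by probe 1 at 0.10 ± 0.19 in 5-month knockouts, -0.13 ± 0.23 in 5-month controls, 0.24 ± 0.09 in 3-month knockouts and 0.09 ± 0.22 in 3-month controls. It gave 0.23 ± 0.13 and 0.31 ± 0.20 from its 2 probes at 5 months and 0.15 ± 0.13 and 0.29 ± 0.20 at 3 months. Serpinf2, the plasmin inhibitor, stood by probe 1 at -0.52 ± 0.45 in 5-month knockouts, -0.47 ± 0.45 in 5-month controls, 0.02 ± 0.22 in 3-month knockouts and -0.18 ± 0.12 in 3-month controls. Its probes differed by -0.05 ± 0.21 and 0.03 ± 0.19 at 5 months. None of these anticoagulant and fibrinolytic genes passed the genotype test at either age.

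Complement genes were higher in 5-month knockouts for 8 of 10 probes, with a median of 0.16 and no call. C8b, a chain of the membrane attack complex, had the smallest p, with 0.27 ± 0.17 in 5-month knockouts and -0.13 ± 0.24 in 5-month controls (difference 0.39 ± 0.16, adjusted p = 0.390), and 0.37 ± 0.26 in 3-month knockouts and 0.34 ± 0.28 in 3-month controls. C9, which polymerises into the pore of that complex, had negative differences at 3 months. C9 probe 1 stood at -0.49, -0.31, -0.57, -0.44 and -0.75 in 3-month knockouts, against -0.33, 0.03, 0.29, -0.13 and 0.18 in 3-month controls. Knockout 2 lay just above control 1, and all 5 knockouts lay below the mean of the controls, with a difference of -0.52 ± 0.24 (adjusted p = 0.562). Probe 2 gave -0.51 ± 0.25. At 5 months the C9 levels were -0.05, 0.11, -0.09, -0.66 and -0.30 in knockouts and -0.09, 0.07, 0.15, -1.23 and -1.09 in controls, where 2 controls were far below the rest.

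Serping1, the C1 inhibitor, stood at 0.41, 0.09, 0.58, 0.56 and 0.45 in 3-month knockouts, against 0.29, 0.19, 0.42, 0.12 and -0.70 in 3-month controls. The groups overlapped, control 5 was far below the rest, and the difference of 0.36 ± 0.20 (adjusted p = 0.679) was 0.17 without that mouse. At 5 months its levels were 0.35, 0.01, 0.32, 0.14 and 0.13 in knockouts and 0.78, 0.24, 0.11, -0.31 and 0.10 in controls, a difference of 0.01 ± 0.20. The proteases and regulators C2, Cfb and Cfi gave 5-month differences of -0.02, 0.17 and 0.05. C6 gave 0.15 and 0.30 and C8a -0.03 at 5 months.

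In the lectin pathway, Colec10, the collectin liver 1 that recognises sugars together with the MASP proteases, was the one member whose 5-month knockouts all lay below the controls. Its levels were 0.29, 0.28, -0.03, 0.16 and 0.31 in 5-month knockouts, against 0.89, 0.92, 0.63, 0.55 and 1.29 in 5-month controls. The groups did not overlap, and the difference of -0.65 ± 0.13 (1.57-fold lower) lay just outside the threshold (adjusted p = 0.0577). At 3 months its levels were 0.48, 0.40, 0.46, 0.39 and 0.22 in knockouts and 0.48, 0.48, 0.64, 0.89 and 0.58 in controls, a difference of -0.23 ± 0.13 (adjusted p = 0.707) with overlap at the edge. This probe did not repeat between dyes: the values of both orientations over 18 mice, with group means removed, correlated at r = -0.43. The 5-month difference was -0.99 in the liver-in-Cy5 arrays and -0.28 in the liver-in-Cy3 arrays alone.

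Over the member probes together, the agreement of the dye orientations was higher than over the array as a whole. Its median r was 0.62 over the 71 member probes (quartiles 0.44 and 0.73) against 0.17 over all probes (quartiles -0.08 and 0.40), and 51 of 71 member probes were above 0.5. Acute phase probes were at both ends, with r of 0.95 for Lcn2, 0.94 for Apcs and 0.92 for Saa1 but -0.40 for Cp probe 1 and 0.08 for Hp probe 1. Pros1, at 0.00, did not repeat either. Mug2 gave 0.34, 0.68, 0.70 and 0.62 and Mug1 0.65, 0.57 and 0.62. Serpinc1 gave 0.27.

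**Figure D5:**
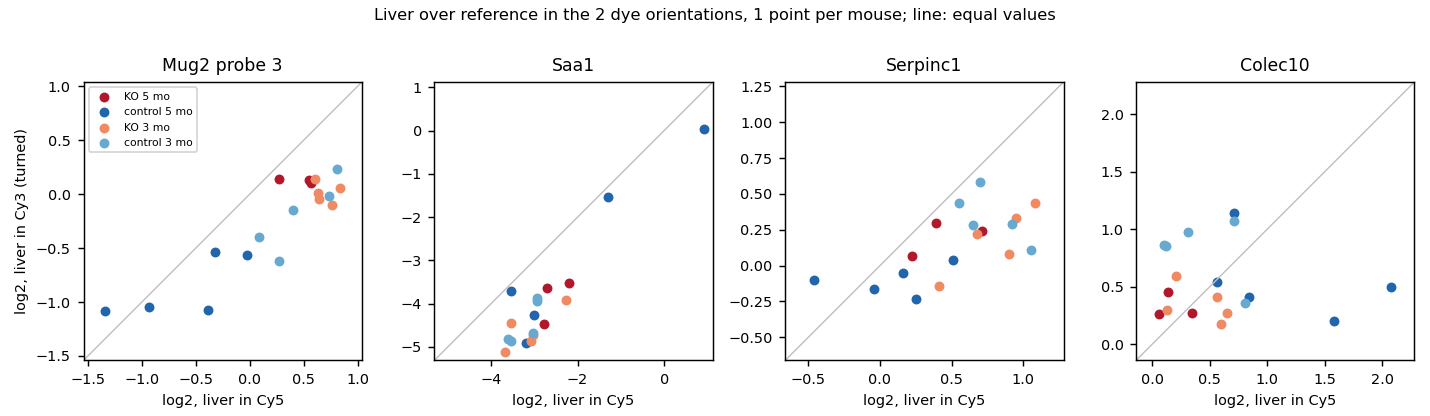
Liver over reference from the liver-in-Cy5 array (horizontal) against that mouse's turned liver-in-Cy3 array (vertical), in log2, for 4 probes, with 1 point for each of 18 mice and the line of equal values. Mug2 probe 3 and Saa1 follow the line in slope, and the Colec10 points do not (r = -0.43 with group means removed).

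Mbl1 and Mbl2, the mannose-binding lectins, were not called in either genotype comparison. Mbl1 stood at -0.05 ± 0.17 in 5-month knockouts, -0.41 ± 0.46 in 5-month controls, 0.08 ± 0.12 in 3-month knockouts and 0.22 ± 0.37 in 3-month controls, with differences of 0.36 ± 0.20 and -0.14 ± 0.20 at 5 and 3 months. Mbl2 stood at 0.23 ± 0.20 in 5-month knockouts, 0.30 ± 0.37 in 5-month controls, 0.29 ± 0.14 in 3-month knockouts and 0.53 ± 0.37 in 3-month controls, with differences of -0.07 ± 0.18 and -0.25 ± 0.18. The 5-month control 4 was the lowest of the 20 mice for both, at -0.79 for Mbl1 and -0.13 for Mbl2.

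Masp1 and Masp2 are the proteases that the lectins activate. Masp1 probe 2 stood at 0.44, 0.34, -0.11, -0.20 and -0.11 in 3-month knockouts, against -0.15, -0.18, -0.16, -0.50 and -0.57 in 3-month controls. Knockouts 1 and 2 were above the reference and the others lay among or just above the controls, with a difference of 0.39 ± 0.15 (adjusted p = 0.462). Its other probes gave 0.01 ± 0.15 and 0.15 ± 0.15 at 3 months, so the probes of this gene disagree. Masp2 probe 1 stood at 0.03, -0.31, 0.17, 0.22 and -0.28 in 3-month knockouts, against 0.11, -0.36, -0.48, -0.30 and -0.57 in 3-month controls. The difference was 0.29 ± 0.17 for that probe and -0.19 ± 0.14 for probe 2, which have opposite signs. At 5 months Masp1 probe 2 stood at -0.32 ± 0.24 in knockouts and -0.52 ± 0.12 in controls, and Masp2 probe 1 at 0.02 ± 0.34 in knockouts and -0.19 ± 0.16 in controls. The 5-month differences were 0.05 to 0.20 for the Masp1 probes and 0.10 and 0.21 for the Masp2 probes.

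Whether the genotype difference itself changed between ages was tested as an interaction. No member probe was called, nor was any of the 36607 probes (0% called), and 8 of 71 had an unadjusted p under 0.05 (11.3%, against 8.06% of all probes) by limma. The smallest p belonged to Mug2 probe 3, whose difference was larger at 5 months than at 3 months by 0.75 ± 0.23 (adjusted p = 0.446). Serpinc1 gave 0.50 ± 0.19, Mug1 probe 1 0.60 ± 0.26, C9 probe 1 0.76 ± 0.34 and Ttr 0.35 ± 0.16, all in the same direction. Colec10 (-0.43 ± 0.19) and Serpina3n (-1.31 ± 0.60) ran the opposite way. Saa4 (-0.56), Mbl1 (0.50), Lcn2 (-2.11), Alb (0.27) and F5 (0.33) followed, with adjusted p of 0.672 to 0.698.

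Between ages, called member probes were found in controls, while the test of the difference between genotypes is the interaction above, which called none. In knockouts no member probe was called by limma and 8 had an unadjusted p under 0.05, where 6.28% of all probes were called and 26.6% had such a p. In controls 14 of 71 member probes were called lower at 5 than at 3 months and none higher (19.7%, against 15.3% of all probes called in either direction and 7.35% called lower). The median of the age difference over member probes was -0.10 in knockouts, against 0.14 over all probes, and -0.24 in controls, against 0.13 over all probes. With each array centred on its median, which takes out that shift of all probes, 3 member probes were called in knockouts and 24 in controls. The share of all probes called after centring was not counted, so these counts have no background beside them. Both comparisons run across array series, and age and series cannot be told apart.

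The 14 probes that fell in controls include all 7 of the murinoglobulins, with differences of -1.12 to -0.61. Mug2 probe 3 fell by 0.87 ± 0.16, with levels of -0.73 ± 0.38 in 5-month controls and 0.14 ± 0.31 in 3-month controls (adjusted p = 0.00317). In knockouts the same probe differed by -0.11 ± 0.16 between ages. Serpinc1 fell by 0.57 ± 0.13 in controls, at -0.01 ± 0.20 in 5-month controls and 0.56 ± 0.07 in 3-month controls without overlap (adjusted p = 0.0099). The other called genes were Masp2 (probe 2, -0.55 ± 0.14), F11 (probe 1, -0.51 ± 0.14), Ttr (-0.39 ± 0.11), Mbl1 (-0.63 ± 0.20), Itih1 (-0.47 ± 0.14) and F5 (-0.43 ± 0.14). No fibrinogen, complement or acute phase probe was called in this comparison.

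The number of calls in controls changed with the mice left out. With single mice left out, the count of 14 ran from 9 without 3-month control 2 to 17 without 5-month control 1. It was 3 without 5-month controls 1 and 4 together. It was also 3 with the sign of 1 array of 5-month control 4 turned, which cancels liver signal of that mouse by construction. In knockouts the smallest p values between ages belonged to Serpina3n (-1.23 ± 0.42, adjusted p = 0.0771), Masp1 probe 2 (-0.39 ± 0.15), Serpinf2 (-0.49 ± 0.19 and -0.54 ± 0.21), F11 probe 2 (-0.34 ± 0.15), Mug2 probe 2 (-0.48 ± 0.21) and Proc (-0.24 ± 0.11). All of these were lower at 5 months, and none passed.

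Single mice set much of the variation among members. Taking the first probe of each gene, 5-month control 1 was the highest of the 20 mice for 15 of 52 genes, among them Saa1, Saa2, Lcn2, Apcs, Orm1, Orm2, Itih3 and Itih4. The 5-month control 4 was the lowest for 34 of 52 genes, among them Alb, Fga, F2, Plg, C9 and Mug1. How often these mice were the extremes over all probes was not counted. In 5-month control 4 the median of the hepatocyte markers, which include the members Alb and Ttr, was also the lowest, -0.56. Low medians were also found there for Kupffer cell and macrophage (-0.62), stellate cell (-0.47), cholangiocyte (-0.43) and sinusoidal endothelium markers (-0.42). Red cell markers stood at -0.17, T and B cell markers at 0 and neutrophil markers at 0.24 in this mouse. The part of this mouse in the difference was measured by leaving it out: the median 5-month difference over the 71 probes was then 0.05, against 0.16 with it and 0.21 without control 1. Without the murinoglobulin probes the median was 0.15.

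The members most like Mug2 probe 1 over 20 mice, with group means removed, were Mug1 probe 3 (r = 0.87), Itih1 (0.71), Serpind1 (0.69), Plg probe 2 (0.69) and C8b (0.68). Without 5-month control 1 these correlations were 0.88, 0.74, 0.69, 0.72 and 0.68. The last 4 of these differ too little in r to be put in order.

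Other genes of the same pathways also lay slightly higher in 5-month knockouts by their medians, with no calls. Of 22 further coagulation and fibrinolysis genes 20 were measured, with 0 of 25 probes called, 4 with an unadjusted p under 0.05 and a median difference of 0.19. Among them F13b, the carrier subunit of factor XIII, gave 0.62 ± 0.16 (adjusted p = 0.137) and Kng1, the kininogen that releases bradykinin, 0.52 ± 0.16. Of 22 further complement genes 18 were measured, with 0 of 26 probes called, 5 with an unadjusted p under 0.05 and a median of 0.18. There C1s1, a protease of the C1 complex, gave 0.46 ± 0.12 (adjusted p = 0.175) and C1qc, which macrophages make, 0.66 ± 0.19. Of 27 further secreted liver proteins 23 were measured, with 0 of 27 probes called, 5 with an unadjusted p under 0.05 and a median of 0.16. There Afm, the vitamin E carrier afamin, gave 0.68 ± 0.18 (adjusted p = 0.175). In these lists 7 of 25, 7 of 26 and 7 of 27 probes were below 0. The last include Apob (-0.47 ± 0.22, adjusted p = 0.477) and A2m, alpha-2-macroglobulin (-0.09 ± 0.45). A2m differed by -1.23 ± 0.45 at 3 months (adjusted p = 0.416), opposite in sign to Mug1 and Mug2. At 3 months the medians of these lists were 0.01, 0.01 and -0.05, again with no calls and 1, 1 and 2 probes with an unadjusted p under 0.05.

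Genes that act upstream of these proteins gave medians from -0.01 to 0.18. The vitamin K cycle, which equips clotting factors for calcium binding, gave a median of 0.02 over 7 probes of 4 genes at 5 months, with none called and none with an unadjusted p under 0.05. Interleukin-6 and acute phase signalling gave -0.01 over 35 probes of 18 of 19 genes, with none called and 6 with an unadjusted p under 0.05, and Stat3 stood at -0.53 ± 0.14 in 5-month knockouts and -0.37 ± 0.46 in 5-month controls. Hepatocyte transcription factors gave 0.18 over 10 probes of 7 of 9 genes, with none called and 1 with an unadjusted p under 0.05.

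Markers of other liver cells were also compared, since the values come from whole tissue. The hepatocyte list shares Alb and Ttr with the members. At 5 months the hepatocyte markers gave a median difference of 0.18 (8 of 8 probes above 0), Kupffer cell and macrophage markers 0.27 (8 of 11), sinusoidal endothelium 0.20 (8 of 10), cholangiocytes 0.20 (3 of 4), T and B cells 0.08 (5 of 6), stellate cells 0.04 (8 of 13), red cells -0.02 (1 of 3) and neutrophils -0.17 (2 of 10), and no marker probe was called by limma, while 0 to 5 probes of each list had an unadjusted p under 0.05. Kupffer cell and macrophage markers had medians per mouse of -0.21 to 0.41 in 5-month knockouts and -0.62 to -0.06 in 5-month controls. At 3 months the medians of the marker lists ran from -0.18 to 0.06. Their part in the member differences was not tested.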

How the data were processed

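RNA of 20 livers was measured on 38 2-colour long-oligonucleotide arrays. Per the series' design text, the authors left out features judged invalid and used median signals for normalisation in the mAdb suite. They deposited a log2 ratio per array for each of 36607 probes. The base of 2 comes from the spacing of the values. Centring was kept as deposited, array medians ran from -0.65 to 0.09 with liver in Cy5 and from -0.38 to -0.04 with liver in Cy3, while numerator dye and background correction were not given in the sources. Probe symbols came from the platform annotation (26926 probes with 1 symbol, 203 with several, 9478 with none).

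Here, liver-in-Cy3 arrays were turned and arrays of a mouse averaged. The 5-month knockouts 2 and 3 had 1 orientation each, so a probe dye effect from the 8 other 5-month mice was subtracted there. Limma 3.58.1 in R 4.3.3 (lmFit, eBayes) was fitted to the 4 groups over 20 mice, after it was tested on simulated data, with Benjamini-Hochberg adjustment at 0.05. The number of arrays limits precision, and with ratios alone no dim probes could be filtered. Members and lists were chosen with earlier results of these data known. Group values were given, by at least 1 probe, for class-defining members, the 12 members with the smallest p in each genotype comparison and interaction, and the 6 in each age comparison, and values of each mouse for the 6 with the smallest p in each genotype comparison and for Saa1, Saa2, Orm1 and Lcn2. Replicate numbers did not pair mice: same-numbered mice of both genotypes correlated at -0.28 to 0.10 at 5 months and -0.07 to 0.11 at 3 months.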

Additional observations from a re-analysis of the deposited data

Results flagged for a closer look

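All 71 member probes in each of the 4 groups, 284 groups of 5 mice in all, were tested for a mouse whose gap to its nearest neighbour is large against the range of the group (Dixon's criterion). Such a mouse was found in 24, and chance gives about 1 in 20.

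Acute phase genes gave several of them. Apcs stood at 1.73 in 5-month control 1, above the other controls of that age, while Hp probe 1 was -0.61 in 5-month control 4, below them. Lcn2 stood at -3.12 in 5-month knockout 3 and Saa2 at -4.16 in 3-month knockout 1, each below the other knockouts of that age. In 3-month control 5, Orm1 at -0.09 and Orm2 at -0.29 lay above the other controls. In 5-month knockout 1, Orm2 at -0.35 and Serpina3n at 0.92 lay above the other knockouts, and in 3-month knockout 5 Serpina3n at -0.76 lay below them.

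Among coagulation and fibrinolysis genes, F11 probe 2 stood at -0.18 in 5-month knockout 4, above the other knockouts. Low values were found in 5-month knockout 2 for Plg probe 1 (-0.23) and Serpinf2 probe 2 (-0.95), and in 3-month control 1 for Serpinf2 probe 1 (-0.40).

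For complement and the lectin pathway, Serping1 at -0.70 and Masp1 probe 1 at -0.89 lay below the other mice in 3-month control 5, and Cfb at -0.10 in 3-month knockout 5. Masp2 probe 2 was low in 5-month knockout 2 (-0.25) and in 5-month control 4 (-0.47). Masp1 probe 3 was high in 3-month control 4 (-0.24), and Mbl1 in 5-month knockout 1 (0.25).

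Of the carriers, Serpina6 was high in 5-month knockout 1 (1.41) and Ahsg low in 5-month control 4 (-0.60). Of the inhibitors, Itih4 probe 1 was low in 3-month control 5 (-0.89) and probe 2 in 5-month knockout 2 (-0.94).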

How the results depend on the processing

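The number of member probes called at 5 months (3) was 9 with quantile normalisation, 5 without the liver-in-Cy5 array of control 4, and 0 with the 10 mice of that age alone, with mice of both orientations alone, with either orientation alone, with no array turned, with the sign of that array turned, with array series as a covariate, within series A, with the least variable probes left out, in the methods' t-test after Benjamini-Hochberg (2 probes at its unadjusted threshold of 0.001), and without controls 1 and 4, a choice made after the values were seen. Leaving out 1 mouse gave 0 to 6. With the replicate number as a block it was also 0, though the numbers do not pair the mice and 1 of 5 mice at 3 months and 0 of 5 at 5 months correlated best with its own number. At 3 months the count was 0 under all 19 alternatives, and for the interaction 0 under all 14, also with each mouse left out. The age count in knockouts (0) was 3 with centred arrays, 2 with quantile normalisation, 2 with no array turned, and 0 to 1 without single mice. In controls (14) it was 24 with centring, 22 with quantile normalisation, 9 with liver-in-Cy3 arrays alone, 4 with no array turned, 3 with the sign of the array of control 4 turned, 7 with the least variable probes left out, 3 without controls 1 and 4, and 9 to 17 without single mice. The median difference stayed at 0.00 to 0.21 at 5 months and 0.02 to 0.14 at 3 months under the alternatives, and at 0.05 to 0.21 and 0.02 to 0.09 without single mice. Called values moved with the mice left out, from 0.88 to 1.20 for Mug2 probe 2, 0.85 to 1.08 for probe 3 and 0.95 to 1.17 for probe 4. The share of all probes called was not counted under these alternatives.

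Signs turned as follows, none of them past the threshold. With no array turned, 3-month values became 0.02 for C9 probe 1, -0.10 for Serping1, -0.04 for Masp1 probe 3, -0.07 for Mug1 probes 1 and 2, and -0.02 and -0.09 for Mug2 probes 1 and 2, and 5-month values became -0.02 and -0.09 for F11, 0.07 for Saa1, 0.60 for Saa2, -0.05 and -0.11 for Mug1 probes 2 and 3, and -0.14 for Mug2 probe 4. That setting averages opposite ratios of a mouse, so it removes liver signal by construction, as turning the sign of the array of control 4 does for that mouse. Masp1 probe 1 at 3 months (0.01) was -0.06 with liver-in-Cy3 arrays alone, -0.22 within series C and -0.15 to 0.07 without single mice. Orm1 at 5 months was 0.12 with series as a covariate and within series A, 0.01 without controls 1 and 4, and -0.42 to 0.20 without single mice. Within series C, Serping1 was -0.05 and Mug1 probe 2 was -0.06. The cause of these turns was not tested beyond that.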
